A study of Caenorhabditis elegans with 12 samples.

Results

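The genes described here are the major sperm protein genes and 3 other gene families of sperm in *Caenorhabditis elegans*, taken as every gene whose symbol is *msp*, *ssp*, *ssq* or *nspd* followed by a hyphen and a number. Of the 46761 genes with a deposited value, 57 met this rule. They comprise 31 *msp* genes, which encode the major sperm protein (MSP), 12 *ssp* genes (sperm-specific family, class P), 4 *ssq* genes (sperm-specific family, class Q) and 10 *nspd* genes (nematode-specific peptide family, group D). Because 2 genes are both named *ssp-9*, the 57 genes carry 56 symbols.

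RNA was sequenced from whole, age-synchronized young adult hermaphrodites of *lin-29(n836)*, *mab-10(tm2497)*, *ddx-23(n5705)* and wild-type genotype, with 3 biological replicates of each genotype and thus 12 libraries. The wild-type strain and the mutants share the reporter transgene *maIs105*, which places GFP under the control of the adult collagen gene *col-19*. LIN-29 is a zinc-finger transcription factor that drives the larval-to-adult transition of the epidermis, MAB-10 is its NAB co-factor, and DDX-23 is a spliceosomal helicase of the DEAD-box family. The *n5705* allele is a missense mutation that retains part of the gene's function, each genotype is 1 strain, and 200 hand-picked animals are stated as the source of the RNA.

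MSP is among the most abundant proteins of nematode sperm. It assembles into filaments that let the amoeboid sperm crawl without actin, and sperm also release it as a hormone that triggers oocyte maturation and ovulation. In hermaphrodites the germ line makes sperm during the last larval stage (L4) and then switches to oocytes. The genes of these families are transcribed in developing sperm cells and fall silent before the sperm mature. A young adult hermaphrodite therefore holds stored sperm, oocytes and at most the remainder of spermatogenesis. The individual *msp* genes encode nearly the same protein, and no separate roles are assigned to them here. The SSP-19 protein of the *ssp* family is a single MSP domain, and no role is given here to the *ssq* and *nspd* products.

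Levels are given as FPKM, fragments per kilobase of transcript and scaled to the reads mapped in the library, recovered from the deposited log2(FPKM+1) values. A difference is the mean log2(FPKM+1) of the first genotype minus that of the second, with its standard error (SE) from limma. Genes were called, as higher or as lower, where the difference was over 1 in size and its adjusted p was under 0.05. The adding of 1 makes a difference understate the fold of a gene with a low level. The deposited FPKM of a library summed to between 1038344 and 1130220, and each library had no signal (a value of 0) for 127 to 446 of the 14199 genes tested. Read totals were unknown, and depth relative to wild-type replicate 1 was estimated, roughly, at 0.807 to 1.06. The *lin-29* transcript was at 6.23 to 8.66 FPKM in *lin-29* mutants and at 2.74 to 3.39 FPKM in wild-type animals, and the *mab-10* transcript was at 5.35 to 7.86 FPKM in *mab-10* mutants and at 3.09 to 5.61 FPKM in wild-type animals. The *ddx-23* transcript was at 65.0 to 72.6 FPKM in *ddx-23* mutants and at 50.3 to 52.7 FPKM in wild-type animals. None of the 3 mutated genes was thus lower in its own mutant, and their transcript levels do not check the genotype labels.

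All 57 genes are annotated as protein-coding, and 50 have a single exon. Of the 31 *msp* genes, 28 have an annotated transcript of 384 bases, and the lengths of 52 of the 57 genes are multiples of 3, so most of the annotated lengths are coding lengths. On the WBcel235 assembly, the *msp* genes are found only on chromosomes II (13 genes) and IV (18 genes). Of all 57 genes, 32 lie on chromosome IV, 15 on II, 7 on I, 2 on V, 1 on III and 0 on X, whereas X holds 13.7% of the protein-coding genes of the 6 nuclear chromosomes and IV holds 16.4%. When neighbouring members were joined across gaps of up to 500 kb, 3 groups of more than 10 members formed. They are IV:9689015-10738602 with 16 members, IV:4994371-5316906 with 15 members and II:4785898-5200180 with 12 members. A smaller group at II:5797065-5810330 holds *msp-63*, *msp-142* and *msp-64*. The families are interleaved in these groups. For example, *ssq-2* (IV:4996142-4997559) lies between the 2 genes named *ssp-9* (IV:4994371-4994700, identifier WBGene00006038, and IV:4999485-4999814, identifier WBGene00006040), with gaps of 1441 and 1925 bases.

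RNA of these families was detected in every library. At least 1 library had a value above 0 for 55 of the 57 genes, and 52 passed the filter of at least 1 FPKM in at least 3 libraries (28 *msp*, 11 *ssp*, 4 *ssq* and 9 *nspd* genes). Of the 5 that did not pass, *msp-32* and *nspd-8* were listed at 0 in all libraries, *msp-58* was above 0 only in *lin-29* replicate 1 (1.79 FPKM) and *msp-74* only in *ddx-23* replicate 3 (1.90 FPKM). The fifth, *ssp-32*, was above 0 in 11 libraries and reached 2.01 FPKM. Reads from near-identical genes have to be divided among the copies by RSEM, so the value of a single *msp*, *ssq* or *ssp* gene is less certain than the sum over a family. No 2 members had identical values in all libraries.

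The sums show the order of the genotypes. The *msp* genes together reached 2107, 1725 and 2283 FPKM in *lin-29* mutants, 683, 1112 and 637 FPKM in *mab-10* mutants, 1787, 2561 and 1294 FPKM in *ddx-23* mutants, and 1467, 955 and 997 FPKM in wild-type animals. As deposited, all *lin-29* libraries were above all wild-type libraries. Scaling by the median ratio between libraries would lower the *lin-29* libraries (log2 shifts of 0.0765 to 0.0955). It would raise wild-type replicates 1 and 2 (shifts of -0.155 and -0.185). Whether the sums stay separate after this scaling was not examined. The *ddx-23* libraries spanned a wide range, with replicate 3 below wild-type replicate 1, and the *mab-10* range overlapped that of the wild-type. The mean of the *msp* sum was 2038 ± 286 FPKM for *lin-29*, 811 ± 262 for *mab-10*, 1881 ± 639 for *ddx-23* and 1140 ± 284 for wild-type animals (SD, n = 3 each). In bulk RNA of whole animals, fewer cells of a type and less RNA per cell cannot be told apart, and this holds for every difference described below.

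**Figure D1:**
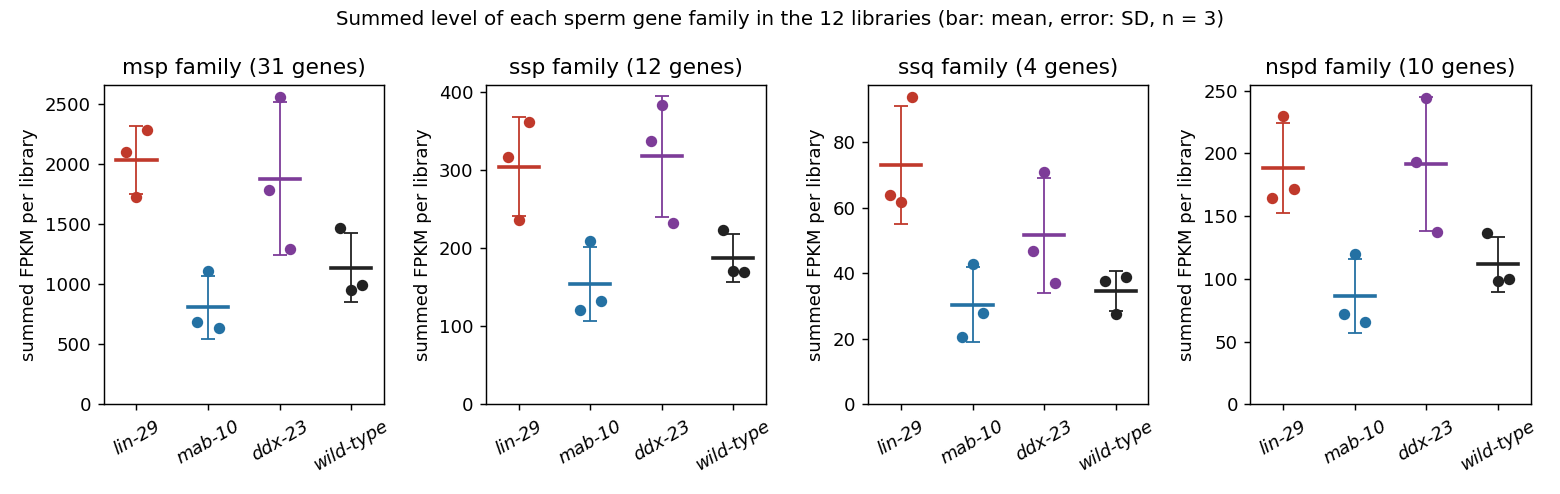
Summed FPKM of the 4 families in each library, with 1 panel per family, genotypes on the horizontal axis, points for single libraries and bars for the mean ± SD (n = 3). For the *msp* genes, the 3 *lin-29* libraries lie between 1725 and 2283 FPKM and the 3 wild-type libraries between 955 and 1467 FPKM.

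The 3 smaller families followed the same order of *mab-10* below wild-type and *lin-29* and *ddx-23* above it in their mean sums. The *ssp* genes summed to 305 ± 63.6 FPKM for *lin-29*, 154 ± 47.7 for *mab-10*, 318 ± 77.1 for *ddx-23* and 188 ± 30.4 for wild-type animals. The *ssq* genes summed to 73.1 ± 17.97 FPKM for *lin-29*, 30.5 ± 11.4 for *mab-10*, 51.6 ± 17.5 for *ddx-23* and 34.6 ± 6.13 for wild-type animals. The *nspd* genes summed to 189 ± 35.8 FPKM for *lin-29*, 86.0 ± 29.5 for *mab-10*, 192 ± 53.4 for *ddx-23* and 111 ± 21.8 for wild-type animals (SD, n = 3 each). Taken over all 57 genes, the mean sum relative to the wild-type mean was 1.77 for *lin-29*, 0.734 for *mab-10* and 1.66 for *ddx-23* animals, without a test since the sum is a score over members. These genes made up between 0.0799% (*mab-10* replicate 3) and 0.302% (*ddx-23* replicate 2) of the summed FPKM of a library.

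The replicates of a genotype differed for most members at once. In *ddx-23* mutants, replicate 2 had the highest value for 45 of the 52 tested members and replicate 3 the lowest for 48. In *mab-10* mutants, replicate 2 was the highest for 45 members, and in wild-type animals replicate 1 was the highest for 46. In *lin-29* mutants, replicate 3 was the highest for 32 members and replicate 2 the lowest for 38. The median SD of a tested member within a genotype was 0.29 for *lin-29*, 0.48 for *mab-10*, 0.48 for *ddx-23* and 0.32 for wild-type animals on the log2 scale. Since the members moved together between replicates, they are not independent observations of a genotype.

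**Figure D2:**
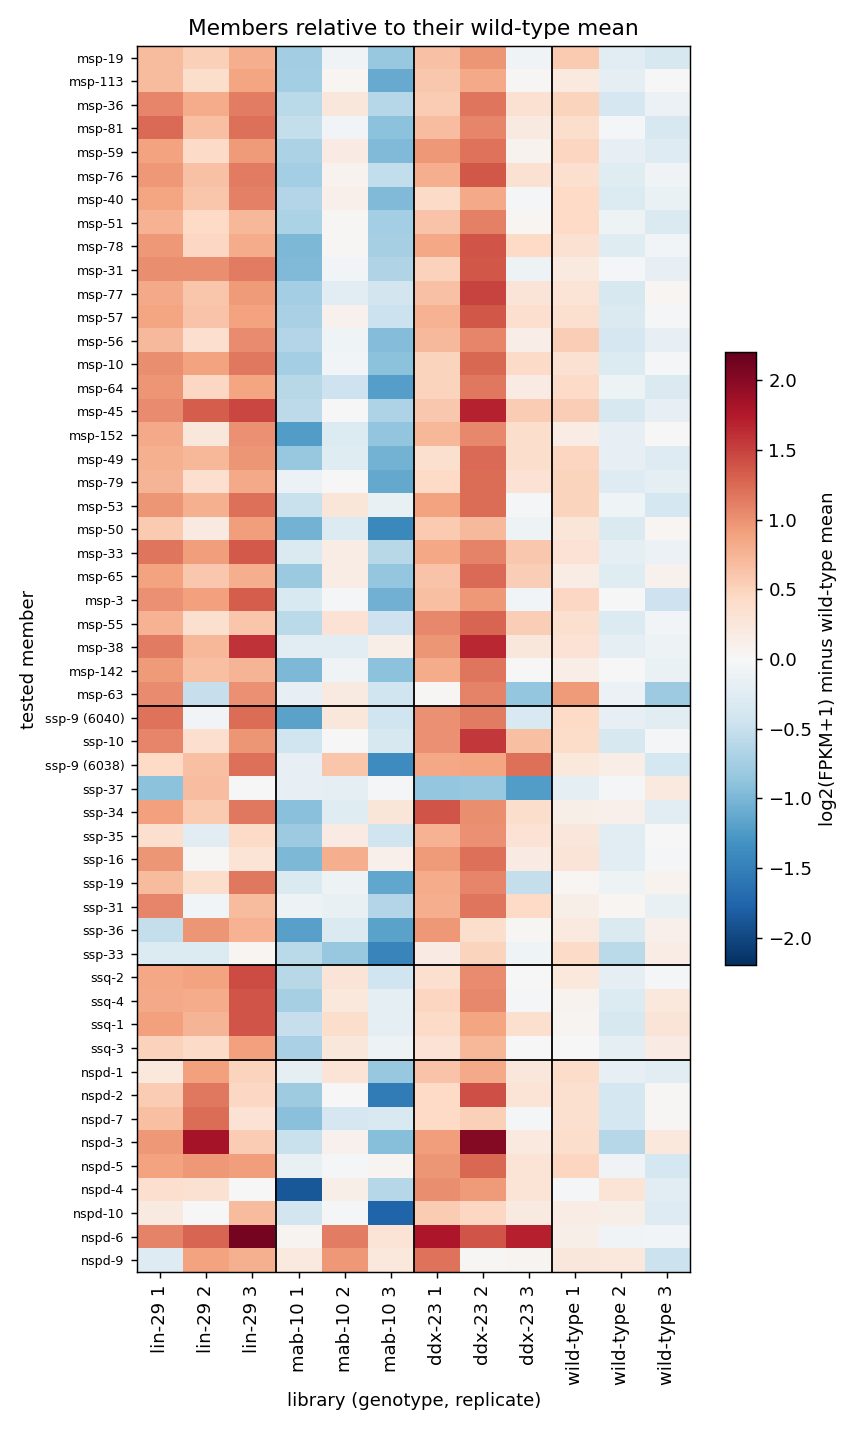
Heat map of log2(FPKM+1) of the 52 tested members (rows, grouped by family) in the 12 libraries (columns, grouped by genotype with wild-type last). Each row is shown relative to its own mean over the wild-type libraries. The *lin-29* columns and most of the *ddx-23* columns lie mostly above the wild-type means and the *mab-10* columns 1 and 3 mostly below them. The row of *ssp-37* runs against this pattern.

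The expressed *msp* genes varied nearly in proportion. Over the 12 libraries, the 378 pairs of tested *msp* genes had a median Pearson r of 0.93, with a lowest value of 0.50, and the 6 pairs of *ssq* genes had a median r of 0.96. The median was lower within the *ssp* family (0.67 over 55 pairs) and within the *nspd* family (0.64 over 36 pairs). These correlations share the libraries and the genotype differences, and near-identical copies also share reads, so they are a description only. As a share of the *msp* sum, the largest single contributor was *msp-19*, at 5.90% on average and between 5.18% and 7.23% in the 12 libraries. The median coefficient of variation of a gene's share of the *msp* sum was 0.122, against 0.449 for its FPKM. Among the tested *msp* genes *msp-63* stood apart, with 0.29 to 3.92 FPKM and a share of 0.022% to 0.232%.

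The first comparison asks which of these genes differ between adults that lack *lin-29* function and wild-type adults. Members of the *msp*, *ssq* and *nspd* families were higher in *lin-29* mutants, by 1.0 to 1.5 on the log2 scale for those called. By limma, 12 of the 52 tested members were called higher and 0 lower, beside 11.1% called higher and 0.845% called lower among all 14199 tested genes. The 12 were 8 of 28 *msp* genes, 3 of 4 *ssq* genes, 1 of 9 *nspd* genes and 0 of 11 *ssp* genes. The share called in this fit was thus above the background, and 32 members had *lin-29* libraries all above the wild-type libraries (24.1% of all tested genes did). A difference above 0 was found for 50 of 52 members and for 9534 of all 14199 tested genes. The median difference was 0.76 over the tested members and 0.19 over all tested genes.

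The largest difference among the members was that of *nspd-6* (IV:5165511-5165726). It was at 8.88, 10.3 and 18.96 FPKM in *lin-29* mutants, against 4.08, 3.41 and 3.43 FPKM in wild-type animals. The groups did not overlap, and the lowest *lin-29* value was above the highest wild-type value. The difference was 1.5 (SE 0.31, limma adjusted p = 0.0066).

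Among the *msp* genes, *msp-45* (II:5156700-5157083) was at 59.1, 72.3 and 79.4 FPKM in *lin-29* mutants, against 41.5, 21.8 and 24.7 FPKM in wild-type animals. The groups were separate, with wild-type replicate 1 closest to the mutants (difference 1.28, SE 0.32, limma adjusted p = 0.0188). The gene *msp-33* (II:4892311-4892694) was at 59.3, 49.5 and 66.4 FPKM in *lin-29* mutants, against 32.2, 22.2 and 23.3 FPKM in wild-type animals. Its replicates were close together, and it had the smallest adjusted p of the members in this comparison (difference 1.15, SE 0.21, limma adjusted p = 0.00337). The other 6 *msp* genes called were *msp-38* (1.16), *msp-3* (1.08), *msp-31* (1.06), *msp-81* (1.03), *msp-10* (1.02) and *msp-36* (1.0). The *msp* genes with the highest mean FPKM, *msp-19* and *msp-113*, were not called, nor was *msp-59*. For *msp-19*, the values were 115, 102 and 124 FPKM in *lin-29* mutants, against 106, 59.6 and 55.2 FPKM in wild-type animals, so that wild-type replicate 1 lay within the mutant range (difference 0.67, SE 0.31, limma adjusted p = 0.148).

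Of the 4 *ssq* genes, 3 were called. The gene *ssq-2* was at 21.3, 21.9 and 32.4 FPKM in *lin-29* mutants, against 13.6, 9.66 and 11.2 FPKM in wild-type animals (difference 1.06, SE 0.30, limma adjusted p = 0.0328). All 4 *ssq* genes had *lin-29* libraries above every wild-type library, and *ssq-1* (1.01) and *ssq-4* (1.01) were called as well. The fourth, *ssq-3*, was the least abundant and had a difference of 0.60 (SE 0.28, adjusted p = 0.157).

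The *ssp* family gave no call by limma in this comparison, and 2 of its 11 tested genes were higher at an unadjusted p under 0.05, where 27.3% of all tested genes were. The more abundant *ssp-9* (WBGene00006040) was at 105, 43.4 and 106 FPKM in *lin-29* mutants, against 61.1, 39.8 and 37.6 FPKM in wild-type animals, and *lin-29* replicate 2 fell among the wild-type values. The other, WBGene00006038, was at 44.2, 51.9 and 75.8 FPKM in *lin-29* mutants, against 38.2, 35.99 and 24.4 FPKM in wild-type animals, with separate groups (difference 0.77, SE 0.41, limma adjusted p = 0.206). The largest *ssp* difference was 0.88, of *ssp-34* (SE 0.32, limma adjusted p = 0.0766).

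**Figure D3:**
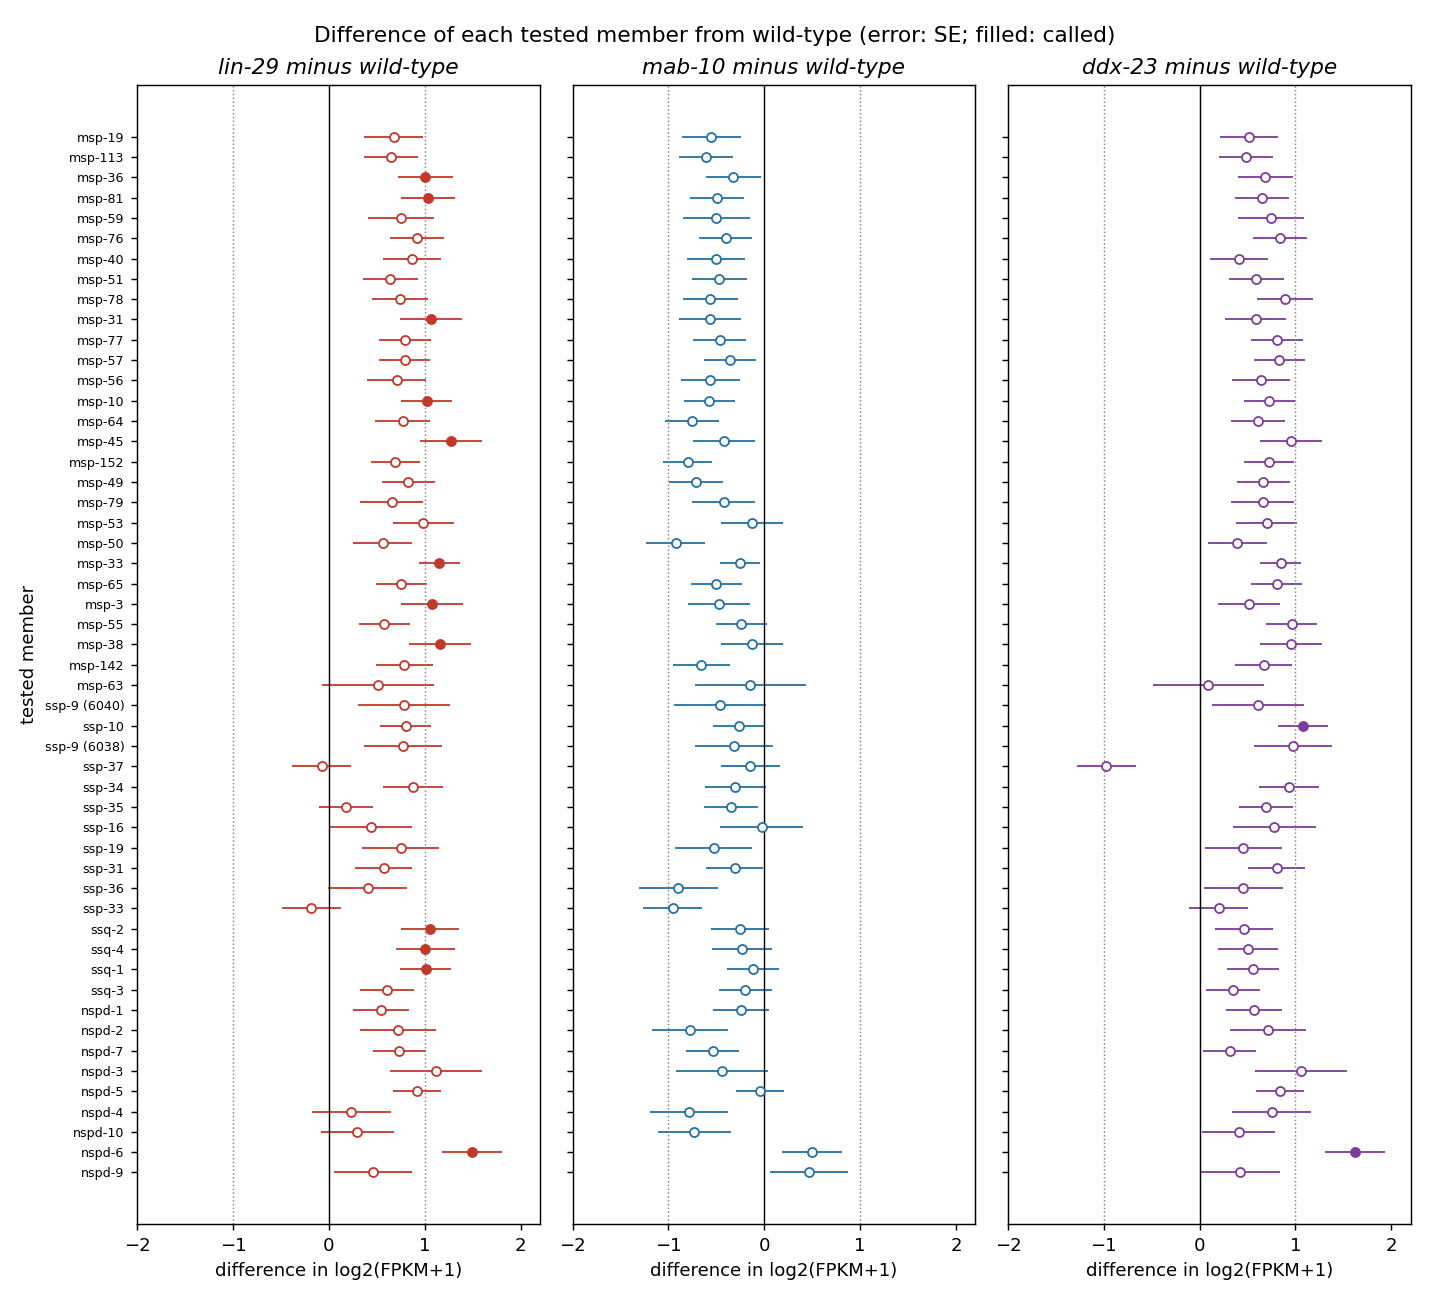
Difference in log2(FPKM+1) of each tested member from the wild-type, with 1 panel per mutant. Members are on the vertical axis, grouped by family, and the difference is on the horizontal axis with its SE as an error bar. Filled points are members called by limma, and lines stand at 0, -1 and 1. In the *lin-29* panel 50 of 52 points lie above 0, in the *mab-10* panel 2 and in the *ddx-23* panel 51.

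The number of *lin-29* calls rested on single libraries. Without *lin-29* replicate 3 or without wild-type replicate 2 it was 2, without wild-type replicate 3 it was 6, and without *lin-29* replicate 2 it was 7. Scaling the libraries by the median ratio between them gave 2 calls and quantile normalization gave 1. The share of all tested genes called under each of these settings was not counted. The median of the members exceeded that of all tested genes by 0.58 as deposited, 0.55 after median-ratio scaling and 0.71 after quantile normalization. The libraries also bear running numbers, and the 7 numbered up to 3244 include all *ddx-23* libraries, while the 5 numbered 3248 and above include none. With the number series as a term in the model there were 6 calls, and the median difference of the members was 0.76. The median was 0.77 within the earlier libraries, where *lin-29* has 1. It was 0.87 within the later libraries, where the wild-type has 1. Of the 12 genes called, 5 overlap another annotated gene (*msp-31*, *msp-33*, *msp-38*, *msp-45* and *ssq-4*), and these are the only 5 members that do. The overlapping genes *aagr-2* and *srb-13* lie on the strand of *msp-31* and *msp-45*, and whether the counting used strand is not given in the sources used here. Without the 5 members, 7 of 47 were called, nearer to the 11.1% of all tested genes called higher, and the median difference was 0.75. The part of the overlapping genes in these values was not tested.

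The second comparison asks the same of *mab-10*, which encodes the co-factor of LIN-29. No member was called in *mab-10* mutants in either direction, beside 0.901% of all tested genes called higher and 0.134% called lower by limma. At an unadjusted p under 0.05, 6 members were lower and 0 higher, where 2.91% of all tested genes were lower and 18.2% higher. The median difference was -0.45 over the members, against 0.14 over all tested genes. A difference below 0 was found for 50 of 52 members and for 3987 of all 14199 tested genes. The median of the members was -0.24 without wild-type replicate 1 and -0.28 without *mab-10* replicate 3. The 3 members farthest from 0 were *ssp-33* (-0.96, SE 0.31, adjusted p = 0.143), *msp-50* (-0.92, SE 0.31, adjusted p = 0.151) and *ssp-36* (-0.90, SE 0.41, adjusted p = 0.241).

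The values of *msp-50* were 17.2, 29.5 and 13.0 FPKM in *mab-10* mutants, against 44.4, 29.1 and 37.9 FPKM in wild-type animals. Replicate 2 of *mab-10* lay just above wild-type replicate 2, and the other *mab-10* libraries lay below all wild-type libraries. The same replicate set the overlap in the *msp* sum, where it was at 1112 FPKM. For *ssp-33*, at 1.52, 1.13 and 0.39 FPKM in *mab-10* mutants and 4.09, 1.53 and 3.24 FPKM in wild-type animals, the groups did not overlap, as for 3 members in all in this direction (3.23% of all tested genes). The 2 members above 0 were *nspd-6* (0.50, SE 0.31) and *nspd-9* (0.47, SE 0.41), neither of them called. Within the libraries numbered up to 3244, where *mab-10* has 1 library, 1 member was called lower. The median was -0.71 within these and -0.15 within the later libraries, where the wild-type has 1.

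The third comparison concerns *ddx-23*. The members had differences mostly above 0 here too, but few passed the test. The median difference was 0.67 over the members and 0.094 over all tested genes. It was 0.43 without *ddx-23* replicate 2 and 0.89 without *ddx-23* replicate 3. In the full fit 51 of 52 members had a difference above 0, as did 8916 of all 14199 tested genes. By limma, 2 members were called higher and 0 lower, beside 4.7% and 0.401% of all tested genes, so the share called was near the background. In 16 members all *ddx-23* libraries were above all wild-type libraries, against 24.1% of all tested genes. By the adjusted p alone, without the threshold on the difference, 4 members passed (7.17% of all tested genes).

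The 2 called members were *nspd-6* and *ssp-10*. The gene *nspd-6* was at 14.9, 11.1 and 14.2 FPKM in *ddx-23* mutants, against 4.08, 3.41 and 3.43 FPKM in wild-type animals, and the groups lay far apart (difference 1.62, SE 0.31, limma adjusted p = 0.00874). The gene *ssp-10* (IV:9850702-9851031) was at 69.1, 102 and 54.6 FPKM in *ddx-23* mutants, against 45.1, 26.4 and 32.8 FPKM in wild-type animals, again with separate groups (difference 1.08, SE 0.26, limma adjusted p = 0.0289). With the third-ranked difference, 1.06, *nspd-3* was not called (SE 0.48, adjusted p = 0.216), and its *ddx-23* values of 20.9, 46.2 and 12.5 FPKM overlapped the wild-type values of 14.1, 6.53 and 12.7 FPKM.

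The most abundant members overlapped between *ddx-23* and wild-type animals, and *ddx-23* replicate 3 was the low library in most of them. For *msp-19*, the values were 111, 139 and 66.9 FPKM in *ddx-23* mutants, against 106, 59.6 and 55.2 FPKM in wild-type animals (difference 0.52, SE 0.31, limma adjusted p = 0.352). Without *ddx-23* replicate 3, 6 members were called higher, and without wild-type replicate 1 there were 4. Without *ddx-23* replicate 1, *ddx-23* replicate 2 or wild-type replicate 2 the count was 1.

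One member, *ssp-37* on chromosome I, ran the other way. It was at 12.6, 12.7 and 9.38 FPKM in *ddx-23* mutants, against 20.4, 23.2 and 27.3 FPKM in wild-type animals, with all mutant values below all wild-type values. The difference was -0.97 (SE 0.31) and did not pass by limma (adjusted p = 0.0834), although 1 member was called lower after median-ratio scaling and after quantile normalization. In *lin-29* mutants *ssp-37* was at 12.2, 38.1 and 23.4 FPKM and in *mab-10* mutants at 20.6, 19.99 and 22.9 FPKM, with differences of -0.07 and -0.14 from the wild-type. Over the 12 libraries its r with the median of the other members was -0.31, the lowest of the 52, and the next lowest was 0.21 for *nspd-9*. It has 2 exons, whereas most members have 1, but *ssp-36* also has 2 and had an r of 0.73.

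**Figure D4:**
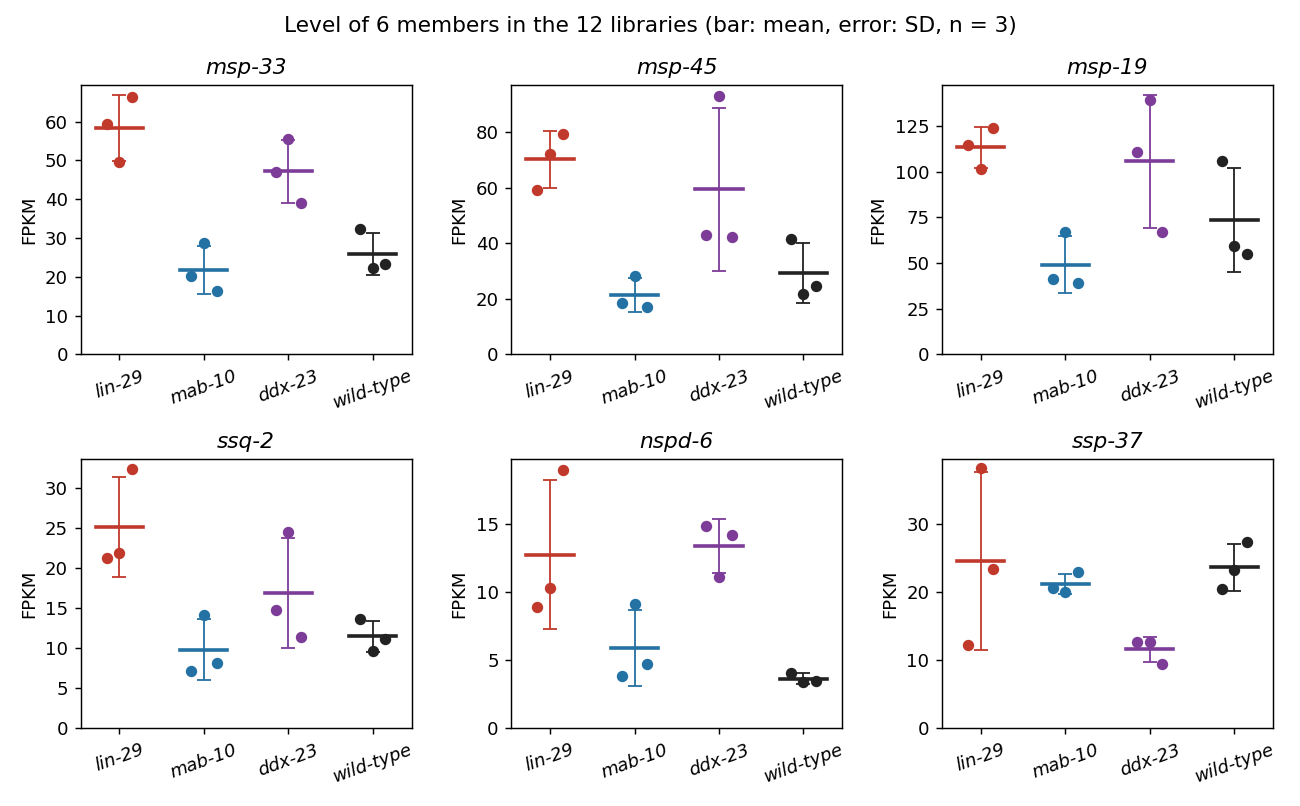
FPKM of *msp-33*, *msp-45*, *msp-19*, *ssq-2*, *nspd-6* and *ssp-37* in every library, with 1 panel per gene, genotypes on the horizontal axis with wild-type last, points for libraries and a bar at the mean. For *nspd-6* the *lin-29* points (8.88 to 18.96) and *ddx-23* points (11.1 to 14.9) lie above the wild-type points (3.41 to 4.08), and for *ssp-37* the *ddx-23* points (9.38 to 12.7) lie below them (20.4 to 27.3).

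The 3 comparisons share the wild-type libraries, so the mutants were also compared directly. Between *lin-29* and *mab-10* mutants, 31 of 52 members were called higher in *lin-29* and 0 lower, beside 5.3% of all tested genes called higher and 0.803% lower by limma. They were 24 of 28 *msp*, 3 of 4 *ssq*, 2 of 9 *nspd* and 2 of 11 *ssp* genes. The median difference was 1.25 over the members and -0.004 over all tested genes, and in 41 members the groups did not overlap (15.4% of all tested genes).

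The largest difference was that of *msp-45*, at 59.1, 72.3 and 79.4 FPKM in *lin-29* mutants, against 18.6, 28.3 and 17.2 FPKM in *mab-10* mutants. The lowest *lin-29* library was above the highest *mab-10* library (difference 1.70, SE 0.32, limma adjusted p = 0.00746). The smallest adjusted p was that of *msp-33*, at 59.3, 49.5 and 66.4 FPKM in *lin-29* and 20.3, 28.7 and 16.4 FPKM in *mab-10* mutants (difference 1.41, SE 0.21, limma adjusted p = 0.00185). The gene *msp-19*, which did not pass against the wild-type, was at 41.2, 67.0 and 39.2 FPKM in *mab-10* mutants and below all *lin-29* libraries (difference 1.23, SE 0.31, limma adjusted p = 0.0299). The members not called included both *ssp-9* genes, *ssq-3* and *ssp-37* (0.07, SE 0.31). Without *lin-29* replicate 3 the count of calls was 10, without *mab-10* replicate 1 it was 14 and without *mab-10* replicate 3 it was 16. With only these genotypes in the model the count was 20. The median was 1.46 within the earlier libraries, where each of these mutants has 1 library. Within the later ones it was 1.12, with 14 calls.

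Between *mab-10* and *ddx-23* mutants, 26 of 52 members were called lower in *mab-10* and 0 higher, beside 3.52% of all tested genes called lower and 1.64% higher by limma. They were 18 *msp*, 5 *ssp*, 3 *nspd* and 0 *ssq* genes. The median difference was -1.13 over the members and 0.055 over all tested genes, and in 34 members all *mab-10* libraries were below all *ddx-23* libraries (16% of all tested genes). The gene *msp-33* was at 20.3, 28.7 and 16.4 FPKM in *mab-10* mutants, against 47.1, 55.4 and 39.04 FPKM in *ddx-23* mutants, with separate groups (difference -1.10, SE 0.21, limma adjusted p = 0.012). The gene *ssp-10* was at 24.8, 33.96 and 26.3 FPKM in *mab-10* mutants, against 69.1, 102 and 54.6 FPKM in *ddx-23* mutants (difference -1.34, SE 0.26, limma adjusted p = 0.0132). For the *ssq* genes, the median was -0.69, 3 were lower at an unadjusted p under 0.05 (11.5% of all tested genes) and no adjusted p was under 0.147. The count fell to 1 without *ddx-23* replicate 2, 2 without *mab-10* replicate 3 and 7 without *ddx-23* replicate 1. It was 16 with no filter on low values and 13 with only these genotypes in the model. Within the libraries numbered up to 3244, where *mab-10* has 1, the median was -1.28.

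Between *lin-29* and *ddx-23* mutants no member was called, beside 9.12% of all tested genes called higher in *lin-29* and 3.04% lower by limma, and 1 member, *ssp-37*, had an unadjusted p under 0.05 (higher in *lin-29*, as for 22.3% of all tested genes). The median difference was 0.08 over the members and 0.048 over all tested genes. A difference above 0 was found for 33 members and below 0 for 19, against 7787 and 6407 of all 14199 tested genes. By family, the median was 0.16 for the *msp*, 0.48 for the *ssq*, 0.007 for the *nspd* and -0.20 for the *ssp* genes. For *ssq-2*, the *lin-29* values of 21.3, 21.9 and 32.4 FPKM overlapped the *ddx-23* values of 14.8, 24.5 and 11.4 FPKM (difference 0.59, SE 0.30, limma adjusted p = 0.187). Without *lin-29* replicate 1, 1 member was called higher.

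Across the comparisons, 20 members were both higher in *lin-29* than in *mab-10* mutants and lower in *mab-10* than in *ddx-23* mutants, 2 comparisons that share the *mab-10* libraries. No share of all tested genes was counted for this, nor for calls in any of the 6 comparisons. In all, 37 of the 52 tested members were called in at least 1 of the 6 comparisons and 15 in none, a description without a background. Those called in none included both *ssp-9* genes, which were among the most abundant members but varied widely within genotypes, as well as *ssq-3*, *msp-63*, *nspd-9* and *ssp-37*. The members of the 3 large chromosomal groups had medians close together. Against the wild-type, the tested members of the group at II:4785898-5200180 had a median difference of 0.89 for *lin-29*, -0.53 for *mab-10* and 0.69 for *ddx-23*, those at IV:4994371-5316906 had 0.78, -0.40 and 0.72, and those at IV:9689015-10738602 had 0.80, -0.47 and 0.72, in the same order of mutants.

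Other genes of sperm were then examined from lists. Among the 15 tested of 31 sperm function genes, which act in the formation, activation or fertilizing ability of sperm, 3 were called higher in *lin-29* mutants, 2 in *ddx-23* mutants and 0 in *mab-10* mutants (where 2 genes stood at an unadjusted p under 0.05, in either direction, as did 21.1% of all tested genes), and 0 were called lower in any of them. Of all tested genes, 11.1% were called higher in *lin-29* mutants, 4.7% in *ddx-23* mutants and 0.901% in *mab-10* mutants. The shares called lower were 0.845%, 0.401% and 0.134% in this order, and these shares apply to the lists below too. The median difference of the list was 0.37 for *lin-29*, 0.06 for *mab-10* and 0.50 for *ddx-23*, and the list's most abundant genes, *zipt-7.1* and *spe-39*, had differences between -0.20 and 0.16. In *lin-29* mutants the called genes were *spe-18* (1.31), whose protein takes part in packing MSP into fibrous bodies, *spe-15* (1.23), a myosin, and *spe-11* (1.13), a sperm-supplied factor that the embryo needs. The gene *spe-11* was at 6.90, 8.02 and 5.49 FPKM in *lin-29* mutants, 6.72, 10.3 and 5.66 FPKM in *ddx-23* mutants, and 3.27, 2.0 and 2.46 FPKM in wild-type animals. Both mutants were above the wild-type in all libraries (limma adjusted p = 0.0121 for *lin-29* and 0.0143 for *ddx-23*). In *ddx-23* mutants *spe-47*, which encodes a protein with an MSP domain, was also called, at 15.8, 7.43 and 10.8 FPKM, against 5.26, 4.53 and 3.49 FPKM in wild-type animals (difference 1.14, SE 0.32, limma adjusted p = 0.0488).

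Genes for sperm chromatin, sperm phosphatases and other MSP-domain proteins made up a list of 9 tested genes. In *lin-29* mutants 2 were called higher, in *ddx-23* mutants 1 and in *mab-10* mutants 0, beside 11.1%, 4.7% and 0.901% of all tested genes. In *mab-10* mutants 1 gene stood at an unadjusted p under 0.05, as did 21.1% of all tested genes. The medians of the list were 0.83 for *lin-29*, -0.19 for *mab-10* and 0.85 for *ddx-23*. The gene *smz-1*, which encodes a PDZ-domain protein of sperm meiosis, was at 18.1, 11.2 and 15.9 FPKM in *lin-29* mutants, against 8.24, 5.58 and 5.59 FPKM in wild-type animals, with separate groups (difference 1.10, SE 0.27, limma adjusted p = 0.018). The gene *msd-2* was at 71.8, 83.3 and 56.9 FPKM in *ddx-23* mutants, against 44.8, 24.6 and 29.3 FPKM in wild-type animals, again with separate groups (difference 1.11, SE 0.26, limma adjusted p = 0.0219). The other *lin-29* call was 1 of 2 genes named *msd-1* (WBGene00009684), which was listed at 0 in all wild-type libraries and at 12.5 to 22.5 FPKM in *lin-29* mutants. Its values spread widely in *mab-10* mutants (4.01, 8.11 and 1.28 FPKM) and in *ddx-23* mutants (0, 40.5 and 14.1 FPKM). The other gene of this name (WBGene00009680) had a difference of 0.27 in *lin-29* mutants (SE 0.21, limma adjusted p = 0.372, not called), and how reads were divided between them was not tested.

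The regulators of sperm fate and spermatogenesis did not move as a list, with medians of -0.007 for *lin-29*, -0.02 for *mab-10* and 0.17 for *ddx-23* over 19 tested genes, and *lin-29* and *ddx-23* mutants had 1 call each. In *lin-29* mutants it was *her-1*, which encodes the secreted signal that specifies male development, at 20.6, 25.9 and 51.9 FPKM, against 1.06, 0.41 and 0.49 FPKM in wild-type animals (difference 4.26, SE 0.96, limma adjusted p = 0.0104). Its values also spread widely in *mab-10* mutants (0, 10.8 and 6.04 FPKM) and *ddx-23* mutants (0.82, 21.5 and 5.70 FPKM). In *ddx-23* mutants it was *fog-3*, a gene required for germ cells to become sperm, at 5.56, 4.02 and 3.89 FPKM, against 0.35, 0.43 and 0.41 FPKM in wild-type animals (difference 1.96, SE 0.20, limma adjusted p = 0.000218). In *lin-29* and *mab-10* mutants *fog-3* stayed between 0.29 and 0.85 FPKM. The factor gene *spe-44*, a regulator of spermatogenesis, had differences of -0.25 for *lin-29*, -0.21 for *mab-10* and 0.10 for *ddx-23* and was not called.

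Genes of the cells that receive the MSP signal were also listed. None of the 10 tested genes of the MSP response, which include the Eph receptor gene *vab-1* and the MSP relative gene *vpr-1*, none of 13 oocyte genes and none of 10 genes of germline proliferation and meiosis was called against the wild-type in any mutant by limma. At an unadjusted p under 0.05, the MSP response list had 2 genes in *lin-29* mutants, 4 in *mab-10* mutants and 4 in *ddx-23* mutants. The oocyte list had 2, 0 and 1 in this order of mutants, and the germline list had 0, 1 and 3. Of all tested genes, 33.8% stood at such a p for *lin-29*, 21.1% for *mab-10* and 23.3% for *ddx-23*. In *lin-29* mutants, *unc-43* of the MSP response list passed the adjusted p alone with a difference of 0.71 (adjusted p = 0.00268), as did the oocyte list's eggshell genes *perm-2* (-0.59, adjusted p = 0.00811) and *perm-4* (-0.40, adjusted p = 0.00443). The medians of the oocyte list were -0.11 for *lin-29*, 0.16 for *mab-10* and 0.08 for *ddx-23*, and those of the germline list were -0.07, 0.03 and 0.02 for the same mutants.

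Markers of males and of other stages were read beside the sperm genes. The 8 genes of male neurons and seminal fluid summed to 1.32 to 2.44 FPKM for *lin-29*, 1.55 to 2.44 for *mab-10*, 2.30 to 3.60 for *ddx-23* and 0.50 to 1.72 FPKM for wild-type animals. The male neuron markers *pkd-2* and *lov-1* were at most at 0.16 and 0.02 FPKM in any library, and the seminal fluid protease gene *try-5* was at 1.27 to 1.59 FPKM in *ddx-23* mutants and at 0.16 to 0.57 FPKM in wild-type animals (difference 0.83, SE 0.19, limma adjusted p = 0.0228, not called). The 4 L4 collagens listed are genes of the larval stage in which hermaphrodites make sperm. Of these, *col-138*, *col-38* and *col-49* were called higher in *ddx-23* mutants. The list summed to 482 to 788 FPKM there, against 11.6 to 28.4 FPKM in wild-type animals. It summed to 17.5 to 32.98 FPKM in *lin-29* and 2.38 to 23.4 FPKM in *mab-10* mutants, where none of the 4 was called. The paper, however, describes many collagens of the L4 stage as raised in adults of every mutant genotype, so this short list does not stand for all of them. It interprets such larval genes as normally held down by the products of the mutated genes. Whether the collagen values reflect the stage of the animals or the mutated genes was not tested. The 6 yolk genes, which are markers of the adult intestine, summed to 9480 to 11179 FPKM for *lin-29*, 13865 to 20390 for *mab-10*, 18887 to 19880 for *ddx-23* and 20520 to 27520 FPKM for wild-type animals, and 4 of them (*vit-1*, *vit-3*, *vit-4* and *vit-5*) were called lower in *lin-29* mutants. No early embryo gene was called by limma among 6 tested, and 1 had an unadjusted p under 0.05, in *lin-29* mutants, where 33.8% of all tested genes did. The part of the animals' stage in the sperm gene values was not tested.

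**Figure D5:**
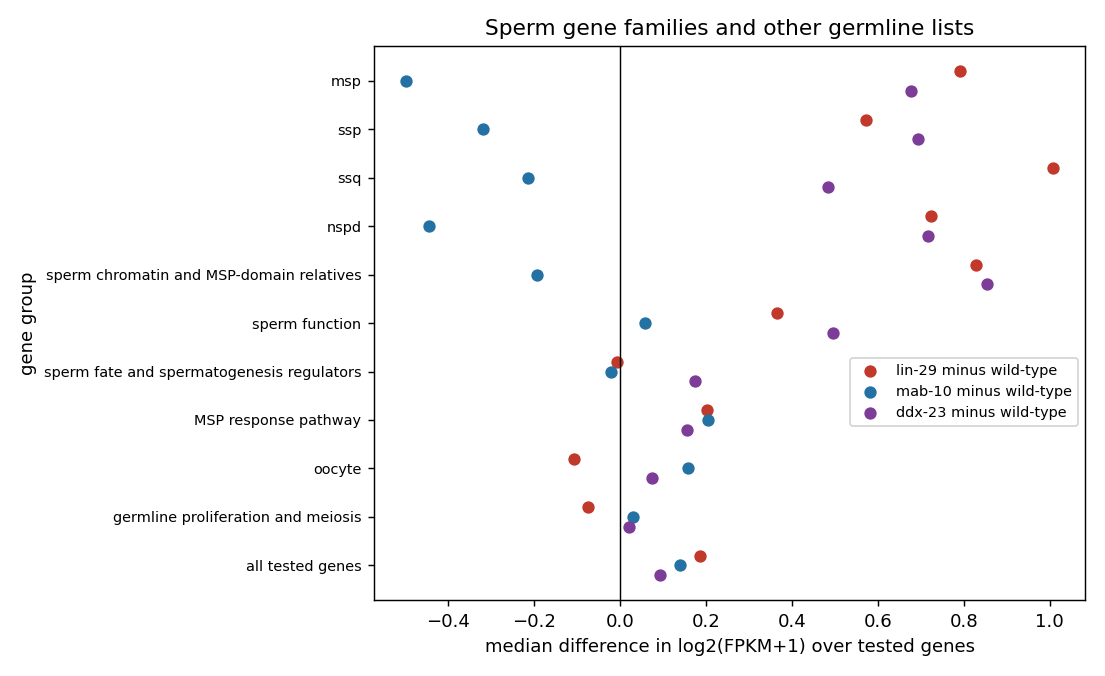
Median difference from wild-type of the tested genes of the sperm, MSP response, oocyte and germline lists (rows) for the 3 mutants, beside each of the 4 sperm families and all tested genes. The *msp* family stands at 0.79 for *lin-29*, -0.50 for *mab-10* and 0.68 for *ddx-23*. The list of sperm chromatin genes and MSP-domain relatives stands at 0.83, -0.19 and 0.85, and the oocyte list at -0.11, 0.16 and 0.08, each in this order.

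The genes outside the 4 families whose log2 values followed the median of the tested members most closely over the 12 libraries were *nsph-3.2* (r = 0.985), *M117.4* (0.979), *gsp-4* (0.973), *smz-1* (0.969), *C34D4.3* (0.967), *catp-4* (0.966), *Y69E1A.1* (0.961), *T28H11.7* (0.961), *ZK1010.5* (0.960) and *B0280.17* (0.960). The gene *gsp-4* encodes a phosphatase found in sperm, and *T28H11.7* is the gene that overlaps *ssq-4*. Of the 14147 tested genes outside the families, 70 had an r above 0.9, and the median r was 0.015. The points share the genotypes and libraries, and the likeness is a description. The closest, *nsph-3.2*, had a difference from wild-type of 1.03 for *lin-29* (limma adjusted p = 0.00856, called), -0.31 for *mab-10* (not called) and 0.68 for *ddx-23* (not called).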

How the data were processed

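RNA of whole young adult hermaphrodites was sequenced on an Illumina NextSeq500. The authors mapped reads to the WS258 (WBcel235) reference using STAR 2.5.3a, and RSEM 1.3.0 estimated gene levels, and per the labels FastQC was used. The deposited values are log2(FPKM+1) from the authors, with no filter: 26789 of 46761 genes are at 0 in every library. FPKM was recovered by raising 2 to each value and subtracting 1. Symbols and WBcel235 positions come from the Ensembl annotation, in which 43780 identifiers were named.

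The 14199 genes that reached 1 FPKM in at least 3 libraries entered limma 3.58.1 (R 4.3.3, trend and robust empirical Bayes), in a model of 4 genotypes over 12 libraries with 8 residual degrees of freedom. Benjamini-Hochberg adjustment ran over all tested genes in each comparison, and p-values were never adjusted over the members alone. The DESeq2 test of the authors needs counts, which these values do not hold. Families, lists, tests and alternatives were chosen with earlier results of these data known. Named genes are the 5 most abundant members of each family, the 8 largest called differences against wild-type (or the 3 largest differences where fewer than 3 were called), up to 5 called and the 3 most abundant genes of each list, and the 10 genes most like the members. Further members were named after their values were seen. Biological replicates came, per the methods, from separate animal populations. Alternatives were the added constant of 0.1, no filter, other scalings, other model options, a replicate block, the library number series and leaving out each library. Tables were made in Python 3.11.15 (numpy 2.4.6, pandas 2.3.3), and plots in matplotlib 3.10.9.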

Additional observations from a re-analysis of the deposited data

How the results depend on the processing

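Read totals are unknown and each genotype has 3 libraries, so small differences of low genes could not be resolved. Of 41 calls of named members, none changed sign in any alternative, and 40 were still made with 0.1 added to the FPKM, 30 with no filter, 30 with median-ratio scaling and 28 with quantile normalization. Fewer held in other alternatives: 24 with only the compared genotypes in the model and 16 without *lin-29* replicate 3. Fewer than 16 held within either library number series alone, where some genotypes have 1 library or none. Leaving out 1 library kept between 16 and 38 of them. The median difference of the members kept its sign in all alternatives except between *lin-29* and *ddx-23* mutants. Median-ratio scaling moved the median of all tested genes in *lin-29* mutants against wild-type to 0.029 (0.19 as deposited) and in *mab-10* mutants to -0.002 (0.14 as deposited), and that of the members to 0.58 and -0.60.

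Members called higher in *lin-29* mutants than in wild-type (12) numbered 2 after median-ratio scaling and 1 after quantile normalization. They numbered 6 with the library series as a term and 2 to 13 when 1 library was left out. In *ddx-23* mutants (2) they numbered 1 after median-ratio scaling, quantile normalization, a fit of only these genotypes or only libraries up to 3244, 4 by the adjusted p alone, and 1 to 6 with 1 library left out, and 1 member was called lower after either scaling. In *mab-10* mutants 1 member was called lower within the libraries up to 3244. Members higher in *lin-29* than *mab-10* (31) numbered 20 with only these genotypes, 14 within the later libraries, and 10 to 33 with 1 library left out. Members lower in *mab-10* than *ddx-23* (26) numbered 16 with no filter, 13 with only these genotypes, and 1 to 29 with 1 library left out. For *lin-29* against *ddx-23* they numbered 0 to 1 with 1 library left out. Where a fit left a genotype with 1 library, that library was assumed to vary like the others. The shares of all tested genes called in these alternatives were not counted, and the causes were not tested.

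The replicate numbers did not pair the libraries: of 18 same-numbered pairs, 8 had an r over 0.1 (-0.298 to 0.460), and 5 of 12 libraries correlated best with their own number. With a replicate block, the calls numbered 11 for *lin-29* against wild-type, 2 for *ddx-23* against wild-type, 29 for *lin-29* against *mab-10* and 25 for *mab-10* against *ddx-23*.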
